A study of Homo sapiens with 13 samples.

Results

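The BRG1 sites described here are the stretches of the genome at which both BRG1 CUT&RUN libraries of the series had a peak. In CUT&RUN an antibody brings a nuclease to a protein on chromatin, and peaks of the freed DNA mark where that protein sits. The peaks of both replicates on chromosomes 1 to 22 and X were merged, and merged stretches with a peak from each replicate were kept. This gave 2039 sites from 3213 peaks in replicate 1 and 6610 peaks in replicate 2, out of 66006 sites or regions defined the same way for all 6 targets of the series. The cells were PANC1, an established line from a human pancreatic ductal carcinoma, as a stable line expressing BRG1 and labelled BRG oe. Every library of the series came from these cells under mild crosslinking, so no cells at the usual BRG1 level were at hand, and the labels do not say whether the line was 1 clone. The other targets used below are SMARCC1, NRF2, H3K27ac, H3K4me1 and H3K4me3, each with 2 replicates, and an IgG library was not used here.

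BRG1, the product of SMARCA4, is one of the alternative ATPases that power the BAF and PBAF complexes, which slide and evict nucleosomes. SMARCC1 is a core subunit of these complexes. In many cell types the BAF complex is known mostly from enhancers, stretches away from gene starts that carry H3K4me1 and, when active, H3K27ac, while H3K4me3 marks gene starts. NRF2 is a transcription factor that drives antioxidant genes, and NFE2L2 is its gene.

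The strength of a peak is the fold enrichment that the authors deposited, given below in replicate 1 and then in replicate 2. The sources used here do not say whether it is over the IgG library or over the library's own background. Peaks were listed library by library without read counts, so the depth is unknown, and a peak that is lacking cannot be told apart from a library of less depth. The labels do not say whether replicates were separate cultures. All markers of other cell types looked up (18 genes of acinar, islet, leukocyte, endothelial and fibroblast cells) lacked joint H3K4me3 and H3K27ac within 1000 bp of an end, against 4 of 6 with both for the keratin, EPCAM and VIM genes of the ductal line. An end of a gene means either limit of its span, the start or the far end. One stretch stood apart: replicate 1 had 11 peaks inside UBA1 that replicate 2 lacked, so none of them is a site.

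Where a BRG1 site lies on a gene start, RefSeq gives the reference DNA around that start. Of 22132 promoter windows of coding genes on GRCh38.p14, each reaching from 250 bases before a start to 50 after, 64 (0.289%) overlapped a BRG1 site. These windows belonged to 60 genes and 57 sites. Of those sites, 43 met both H3K4me3 and H3K27ac, and 5 met none of the 3 marks. The 4 windows below, chosen after their values were seen, show the range. MEF2C has a site with no mark that meets an NRF2 site, INTS6 a site with H3K4me3 alone, SLC2A1 a site with H3K4me3 and H3K27ac, and KLHL41 a site with H3K27ac and H3K4me1 that meets SMARCC1 and NRF2 sites. Only the 250 bases before the start are printed, 5′ to 3′ on the gene's strand, with every motif match in capitals. The 6 motifs are spelled out in the paragraph on their shares and were searched on both strands.
MEF2C, chr5:88785512-88785761, minus strand: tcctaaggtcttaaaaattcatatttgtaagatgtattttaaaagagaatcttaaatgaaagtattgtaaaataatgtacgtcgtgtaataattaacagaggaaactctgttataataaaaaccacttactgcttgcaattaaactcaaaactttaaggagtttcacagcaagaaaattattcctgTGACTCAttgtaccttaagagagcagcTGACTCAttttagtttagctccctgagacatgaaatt
INTS6, chr13:51453037-51453286, minus strand: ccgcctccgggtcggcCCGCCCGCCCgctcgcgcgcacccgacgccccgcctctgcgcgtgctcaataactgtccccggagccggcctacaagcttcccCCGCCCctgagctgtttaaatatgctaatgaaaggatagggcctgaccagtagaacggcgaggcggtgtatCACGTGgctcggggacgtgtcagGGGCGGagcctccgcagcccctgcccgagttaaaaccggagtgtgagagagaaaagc
SLC2A1, chr1:42958869-42959118, minus strand: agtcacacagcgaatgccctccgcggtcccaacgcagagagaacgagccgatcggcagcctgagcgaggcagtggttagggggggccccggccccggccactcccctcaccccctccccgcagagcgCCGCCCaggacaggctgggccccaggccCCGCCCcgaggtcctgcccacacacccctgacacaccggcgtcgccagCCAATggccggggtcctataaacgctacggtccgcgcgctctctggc
KLHL41, chr2:169509452-169509701, plus strand: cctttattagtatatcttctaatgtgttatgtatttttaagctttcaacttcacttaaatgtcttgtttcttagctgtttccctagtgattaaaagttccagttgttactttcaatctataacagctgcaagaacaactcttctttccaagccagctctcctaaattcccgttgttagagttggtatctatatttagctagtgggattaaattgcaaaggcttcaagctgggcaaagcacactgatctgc

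The MEF2C stretch, at one of the starts of this gene for a transcription factor of muscle, neurons and lymphocytes, held 2 AP-1 matches and 30% G and C. Its site had a fold enrichment of 3.94 and 5.14 and covered all 250 bases. INTS6 encodes a subunit of the Integrator complex, which cuts nascent RNA. Its stretch held 4 GC box matches and 1 E-box match with 66% G and C, and its site, at 3.19 and 6.03, also covered all 250 bases. SLC2A1 encodes the glucose transporter GLUT1. The first 143 bases of its stretch lay under a site of 4.54 and 4.47, and the stretch held 2 GC box matches and 1 CCAAT box match with 72.4% G and C. KLHL41, a gene of skeletal muscle, had none of the 6 motifs in the printed bases, of which the first 225 lay under a site of 4.56 and 4.37.

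Over all 64 windows with a site, the AP-1 letters TGANTCA were present in 11 (17.2%, exact 95% interval 8.90 to 28.7) against 6.15% of all windows. The GC box, GGGCGG, was present in 47 windows (73.4%, against 56.3% of all windows). The CCAAT box was present in 29 (45.3%, against 34.6%). For the ETS letters, CCGGAA, the shares were 26.6% and 21.2%. The E-box, read as CACGTG, had 12.5% and 8.34%, and the TEAD letters, read as CATTCC, had 10.9% and 12.2%. Median G and C content was 62.3% in both sets. These matches describe letters in a window and were not tested. They were counted over all 300 bases of a window, of which the site at SWT1 covered only 1. A match can thus lie outside the site. The AP-1 match of SLFN12 did so, since the site covered 20 bases of that window. Matches of the ETS and TEAD letters can overlap, and sites away from starts were not searched.

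A BRG1 site also lay close to 4 of the 1558 microRNA hairpins of the RefSeq table, counting those within 2000 bp. How many would lie so close by position alone was not examined, so this count is not read as high or low. The strongest lay 934 bases from MIR30A on chromosome 6, in the group of 4 sites beyond OGFRL1 described further on. This site, chr6:71404556-71405132, had a fold enrichment of 4.34 and 5.65 and met H3K27ac. The others were 547 bases from MIR4651, with 4.16 and 4.88 and both H3K27ac and H3K4me3, 1229 bases from MIR583, with 3.94 and 4.29 and H3K27ac, and 912 bases from MIR10522, with 3.49 and 3.69 and H3K4me1. The mature RNAs of MIR30A and MIR583 are shown, with the seed (bases 2 to 8) in capitals. Their sites belong to the OGFRL1 group and to CAST, both described further on. No 2 of the 3 share a seed.
hsa-miR-30a-5p: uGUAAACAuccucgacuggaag
hsa-miR-30a-3p: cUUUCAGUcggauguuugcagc
hsa-miR-583: cAAAGAGGaaggucccauuac

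BRG1 sites were short and moderately enriched. Their median width was 382 bp, with quartiles of 296 and 479 bp and a range of 201 to 1278 bp, and together they covered 817.582 kb. Median fold enrichment was 3.49 in replicate 1 and 3.89 in replicate 2, and 1351 sites had the higher value in replicate 2. The summits of both replicates lay a median of 58 bp apart, and in 1852 sites (90.8%) they were within 200 bp. In 2001 sites exactly 1 peak of each replicate had been joined.

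The strength of a site was only loosely shared between the replicates. Across the 2039 sites, Pearson's r of log2 fold enrichment was 0.454 and Spearman's correlation of fold enrichment 0.413, as a description of sites that share 2 libraries. Of the 408 strongest sites of each replicate, 188 (46.1%) were the same. The authors' −log10 q reached 1.3 in both replicates at 174 sites (8.53%, 95% interval 7.36 to 9.83). It did so at 230 sites (11.3%) in replicate 1 and at 624 (30.6%) in replicate 2.

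**Figure D1:**
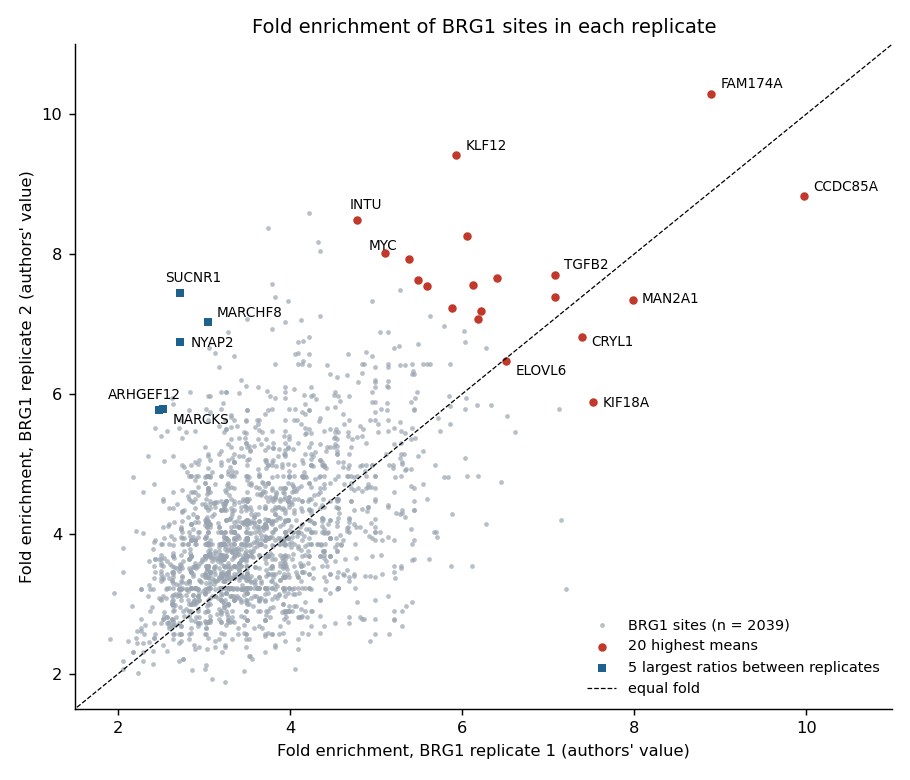
Fold enrichment of each BRG1 site in replicate 1 (horizontal) and replicate 2 (vertical), both as deposited by the authors. Each point is 1 of 2039 sites, red marks the 20 highest means, blue squares the 5 sites with the largest ratio between replicates, and the dashed line equal values. The sites beside FAM174A and CCDC85A stand above 8.8 in both replicates, and the 5 blue squares all lie on the replicate 2 side.

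The strongest site, chr5:99900078-99900740, lay 634634 bp from the nearer end of FAM174A. It had a fold enrichment of 8.89 and 10.3, met an NRF2 site and met none of the 3 marks. The next, 355567 bp from CCDC85A, had 9.97 and 8.82 and neither a mark nor another factor. Both values of each of these sites lay above every other site's mean. The third, at 5.93 and 9.41, was 963 bp wide, met no mark and lay inside KLF12, a gene for a Krüppel-like transcriptional repressor, and inside the lncRNA gene LINC00402. MAN2A1, a Golgi enzyme that trims N-glycans, had a site 7681 bp from its end with 7.98 and 7.35 and H3K4me1.

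The sites named with TGFB2, COL17A1, LGR4 and IL7R were also among the 20 strongest. TGFB2, a TGF-beta ligand, had a site 18828 bp from its end with 7.08 and 7.70 and H3K27ac. COL17A1, a collagen of hemidesmosomes, had one 8012 bp away with 7.08 and 7.38 and no mark. The R-spondin receptor gene LGR4 held one at 6.40 and 7.65 with H3K27ac. IL7R, the interleukin 7 receptor gene, held one at 5.89 and 7.22 with no mark, 808 bp from an end. For TGFB2, COL17A1 and LGR4 both replicates were above 6, while IL7R was below 6 in replicate 1.

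Of the next 8 leading sites, 5 lay inside a coding gene and 3 outside. LARP1B, which encodes a La-related RNA-binding protein, held a site at 6.06 and 8.26, and CRYL1, an enzyme gene of the uronate pathway, held one at 7.39 and 6.81 that met an NRF2 site. A site at 6.13 and 7.56 lay 41870 bp from EEA1, which encodes a tether of early endosomes. One at 7.52 and 5.88, with H3K27ac, lay 115476 bp from KIF18A, a mitotic kinesin gene. WFDC3 held one at 6.22 and 7.18, and INTU, a gene of cilium assembly, was the nearest gene to one at 4.77 and 8.49, 782174 bp away. PAFAH1B1, which encodes the dynein regulator LIS1, held one at 5.49 and 7.63, and ELOVL6, a fatty acid elongase gene, one at 6.51 and 6.48. Of these 8 sites, only that beside KIF18A met one of the marks.

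The remaining 4 of the 20 leading sites all met H3K27ac. MYC, the proto-oncogene, was the nearest coding gene to a site at 5.38 and 7.93 that lay 811796 bp from it, inside the lncRNA gene LINC00824, and that met an NRF2 site. NFIL3, a leucine zipper repressor gene, lay 52843 bp from a site at 6.18 and 7.06. LRRC8D, which encodes a subunit of the volume-regulated anion channel, held one at 5.59 and 7.54, and NCOA7 one at 5.10 and 8.02 that met NRF2. In LRRC8D and NCOA7 the sites also met H3K4me1.

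The largest disagreements between replicates all had the low value in replicate 1. The site 12126 bp from SUCNR1, the succinate receptor gene, had 2.72 and 7.44, a ratio of 2.74. That near NYAP2 had 2.72 and 6.74, that inside ARHGEF12, a guanine nucleotide exchange factor gene, 2.47 and 5.78, that inside MARCHF8, a ubiquitin ligase gene, 3.04 and 7.03, and that nearest to MARCKS 2.53 and 5.78. In all 5 of these sites the −log10 q of replicate 1 was listed as 0.

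The widest sites ranged widely in strength. The widest, 1278 bp inside MGAT4C, had 3.23 and 3.64 and H3K27ac, and ranked 1383. GAB2, a docking protein of growth factor signalling, held the next at 1130 bp, with 5.28 and 5.60 and with H3K27ac and H3K4me1. Sites of 1085 bp near RDX, which links actin to the membrane, and of 1023 bp near IBTK, an inhibitor of Bruton's tyrosine kinase, also met H3K27ac. The other 6 of the 10 widest, between 897 and 979 bp, were at NECAB1, ANKRD60, KLF12, TCEAL1, ROS1 and SUCLG1. Of these, TCEAL1 and SUCLG1 met H3K27ac.

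The widest sites met H3K27ac most often, but the share did not rise steadily with width. Among the 404 widest sites (512 bp and over) 42.6% met H3K27ac (95% interval 37.7 to 47.6), against 30.2% (25.8 to 34.9) among the 414 narrowest (277 bp and under). The groups between them, from narrow to wide, had 24.0%, 26.7% and 35.0%. Since a wider stretch can meet more peaks, width and mark cannot be told apart here. By mean fold enrichment, 33.8% of the 408 strongest and 29.5% of the 407 weakest sites met H3K27ac. H3K4me3 was met by 3.68% and 6.63% of them. NRF2 sites were met by 52 of the strongest 408 sites (12.7%, 9.67 to 16.4) and by 5 of the weakest 407 (1.23%, 0.400 to 2.84). In each library's own peaks the NRF2 shares were 7.78% of the 643 strongest and 1.71% of the 643 weakest peaks in replicate 1, and 4.61% and 0.530% of 1322 each in replicate 2.

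BRG1 sites were spread unevenly over the chromosomes. Over all chromosomes there were 0.674 sites per Mb of the span between the first and last coding gene. Per Mb, chromosome 6 had the most, 1.21 (206 sites), followed by chromosome 5 with 1.01 (184 sites). Chromosome 22 had 6 sites (0.118 per Mb), chromosome 19 had 12 (0.205 per Mb) and chromosome 14 had 26 (0.246 per Mb). Chromosome 19 is the richest in genes, with 24.8 coding genes per Mb, and had 0.827 sites per 100 coding genes against 20.4 on chromosome 5.

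The chromosomes with the most genes per Mb were not those with the most sites per Mb. Across the 23 chromosomes, Spearman's correlation between sites and coding genes per Mb was −0.177, a description over chromosomes of very different lengths. Both libraries ranked the chromosomes alike, with a Spearman's correlation of 0.958 between their peaks per Mb, and they share the genome's copy number and base composition. Per 100 H3K27ac regions, chromosome 6 had 14.8 sites and chromosome 5 13.8, while chromosome 19 had 1.19 and chromosome 22 1.11. The share of replicate 2 peaks not found in replicate 1 ran from 63.1% on chromosome 18 to 80.6% on chromosome 22.

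**Figure D2:**
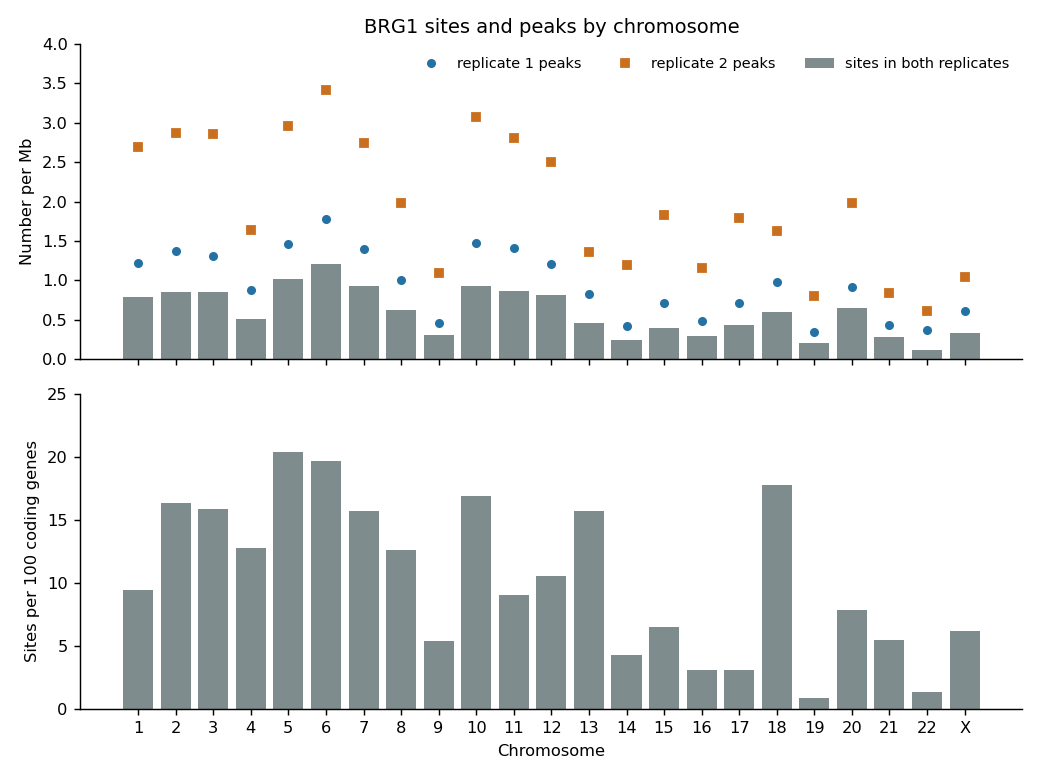
Number of BRG1 sites (bars) and of BRG1 peaks in each library (points) per Mb of the span between first and last coding gene (upper plot), and BRG1 sites per 100 coding genes (lower plot), for each chromosome. Chromosome 6 is highest per Mb at 1.21 and chromosome 22 lowest at 0.118, and chromosome 19 has 0.827 sites per 100 genes.

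By count, most BRG1 sites lay inside or far from genes and few at gene ends. Inside the span of a RefSeq coding gene lay 1032 sites (50.6%, 95% interval 48.4 to 52.8), and coding genes cover 42.6% of the spans when chromosomes are weighted by their sites. A further 562 sites (27.6%, 25.6 to 29.6) were over 50 kb from any coding gene, 79 of them over 500 kb. Gene ends, starts and far ends alike, had 98 sites within 1000 bp (4.81%, 3.92 to 5.83), and 1669 (81.9%) were over 10 kb from any end. In the single libraries the gene-end share was 6.16% and 8.12%. Bases over 50 kb from a coding gene, within the span of coding genes, came to 1163 Mb. The genome's share of such bases, or of bases near ends, was not set beside these counts. Whether sites favour or avoid either place is therefore not read from them. The median distance to the nearest gene end was 45606 bp. The site farthest from any coding gene, chr13:89726764-89727316, lay 1671304 bp from GPC5, a glypican gene, with 2.73 and 4.07.

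Where strand was known, sites at gene starts lay on both sides. Of the 1949 sites off chromosome 8, 97 (4.98%) lay within 1000 bp of a RefSeq start, 52 with their centre upstream and 45 at or downstream, with a median offset of −40 bp. Away from coding genes, lncRNA genes often held the site. Of the 562 sites over 50 kb from a coding gene, 175 (31.1%, 27.3 to 35.1) lay in one of 18177 RefSeq lncRNA genes, which cover 21.5% of the bases that far out.

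The marks differed strongly with position. Of the 98 sites at gene ends, 73.5% met H3K27ac and 67.3% H3K4me3, and 19.4% met no mark. Of the 962 sites farther inside genes, 33.4% met H3K27ac, 32.0% H3K4me1 and 4.26% H3K4me3. Over 50 kb from genes these shares were 23.0%, 26.0% and 0% (0 of 562, exact upper bound 0.654%), and 62.3% met no mark. The median of the sites' mean fold enrichment was 3.68 at gene ends, 3.73 inside, 3.76 up to 50 kb outside and 3.78 beyond. Sites inside genes shorter than 100 kb met H3K27ac in 48.1% of 287 cases and H3K4me3 in 21.6%, against 31.5% and 3.76% of 745 sites inside longer genes.

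**Figure D3:**
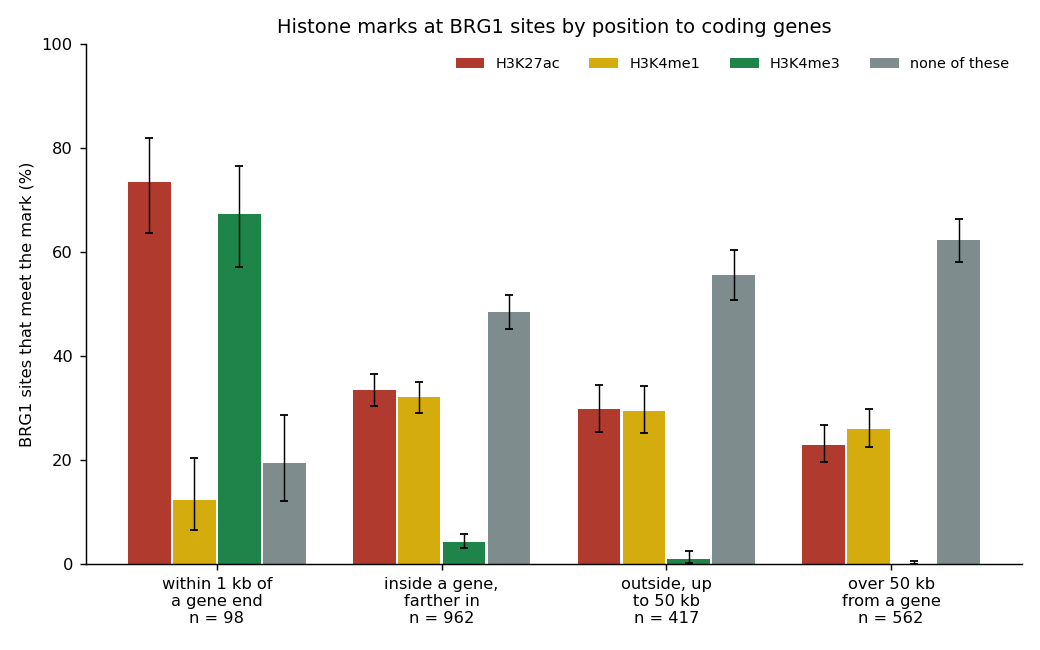
Share of BRG1 sites (vertical, percent) that met an H3K27ac, H3K4me1 or H3K4me3 region, or none of these, for 4 positions relative to RefSeq coding genes. Bars are shares over sites of both replicates and lines are exact 95% intervals. H3K4me3 was met by 67.3% of the 98 gene-end sites and by 0 of the 562 sites over 50 kb from a gene.

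Of the 383 strongest sites, 16 (4.18%) were gene-end sites, near their 4.81% of all sites. The strongest gene-end site was that of IL7R. After IL7R came ZFAND1, a zinc finger gene of the stress response, whose site on its end had 4.22 and 6.81 and met H3K27ac, H3K4me3, SMARCC1 and NRF2. MAML2, a Notch coactivator gene, had a site 764 bp from an end with 5.40 and 5.35, an NRF2 site and no mark. KHDRBS3, an RNA-binding protein gene, had 4.56 and 5.97 with H3K27ac and H3K4me3. The site at NF1, which encodes a brake on RAS, lay 16 bp from a gene end with 5.40 and 4.92 and no mark, and that end belongs to another coding gene, since both ends of NF1 are farther away.

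The other 5 named gene-end sites split by mark. NUDT6, which overlaps FGF2 on the other strand, had 5.11 and 5.14 and no mark. SLFN12 had 4.90 and 4.67, and RPL39, a ribosomal protein gene, 5.44 and 3.64, both with H3K27ac and H3K4me3. INTS6 is described above. LAMB3, a laminin 332 chain gene, had 3.64 and 5.49, 421 bp from an end, with H3K27ac and H3K4me1.

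BRG1 sites differed in position from the sites of the other 2 factors. SMARCC1 had 169 sites with a peak from both replicates and NRF2 383, so the lists differ in length. The highest −log10 p of SMARCC1 was also below that of BRG1, while their fold enrichment was not compared and depth is unknown. Outside UBA1 the highest −log10 p in replicates 1 and 2 was 6.79 and 6.36 for SMARCC1, against 17.2 and 20.9 for BRG1. Of the SMARCC1 sites, 68.6% lay inside a coding gene and 27.8% within 1000 bp of a gene end, against 50.6% and 4.81% of the BRG1 sites (odds ratios 0.468, 95% interval 0.334 to 0.655, and 0.131, 0.0885 to 0.194). Over 50 kb from genes lay 27.6% of BRG1 and 5.92% of SMARCC1 sites (odds ratio 6.05, 3.17 to 11.5). By Fisher's exact test, two-sided, adjusted over 6 comparisons, p was 7.44e-06, 3.20e-19 and 8.64e-12. Sites are not replicates, and these tests compare the lists of these libraries.

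Against NRF2 the inside share went the other way. NRF2 sites lay inside genes in 27.9% of cases (odds ratio 2.64 for BRG1, 2.08 to 3.36, adjusted exact p = 3.67e-16) and at gene ends in 12.5% (0.352, 0.245 to 0.507, adjusted exact p = 1.80e-07). Over 50 kb out lay 20.6% of NRF2 sites (1.46, 1.12 to 1.91, adjusted exact p = 0.00448), and with only the 383 strongest BRG1 sites the last odds ratio was 1.42 (adjusted exact p = 0.0507).

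Of 19974 coding genes, 1166 (5.84%) were the nearest gene within 50 kb of a BRG1 site, and 815 (4.08%) were so with a site in their span. Such genes were long. The share with an assigned site was 1.88% of genes under 20 kb, 4.82% of those of 20 to 100 kb, 15.8% of those of 100 to 300 kb and 28.7% of those of 300 kb or longer. Per Mb of gene length the sites inside numbered 0.481, 0.699, 1.05 and 0.689 in the same order, so the density was highest in genes of 100 to 300 kb. Several sites were assigned to 231 genes (1.16% of coding genes), which took 542 (36.7%) of the 1477 assigned sites. With −log10 p of at least 5 in both replicates there were 373 sites, and 13 genes had several. The median length of the 231 genes was 207 kb, against 94.4 kb for genes with 1 site and 24.2 kb for all coding genes.

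DST had the most sites, 7, over 414 kb. It encodes dystonin, a giant linker between cytoskeletal filaments and, in epithelia, hemidesmosomes. Its fold enrichment ranged from 2.21 to 4.10 in replicate 1 and from 3.15 to 5.19 in replicate 2. Of the 7 sites 6 met H3K27ac and none met H3K4me1, and the site without a mark was the strongest, at 3.53 and 5.19.

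KCNQ5, a potassium channel gene, had 6 sites over 472 kb, of which 5 met no mark and 1 met H3K4me1. Its strongest had 5.34 and 4.23. SEMA3A, which encodes a repulsive guidance cue, had 5 sites without any mark, ranging from 2.83 to 5.87 in replicate 1 and from 3.29 to 4.20 in replicate 2. CAST, which encodes the calpain inhibitor calpastatin, had 5, of which 3 met no mark, and its site at 3.94 and 4.29 is the one beside MIR583. KCNQ5 and SEMA3A thus held 11 sites between them, of which 10 were unmarked, against 1 of 7 in DST. Of all 745 sites inside genes of 100 kb or longer, 49.5% met no mark. The contrast between these genes was not tested.

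The other genes with 5 sites were mostly marked. ABLIM3, an actin-binding LIM protein gene, had 4 of 5 sites with both H3K27ac and H3K4me1, led by one at 5.29 and 5.30. NSMCE2, which encodes a SUMO ligase of the SMC5/6 complex, had 4 of 5 with H3K27ac, and ME3, a mitochondrial malic enzyme gene, 4 of 5. Among the genes with 4 sites were SDK1 and ANK3, for a cell adhesion protein and for ankyrin-G, TIAM2, a Rac activator gene, COL4A6, for a collagen IV chain, and ZNF608. The strongest of SDK1 lay 32735 bp outside the gene with 4.22 and 8.59 and met NRF2. All 4 of COL4A6 met H3K4me1, while 3 of 4 in ZNF608 met no mark.

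Sites within 50 kb of one another formed 235 clusters with 518 sites (25.4%, 23.5 to 27.4), and with −log10 p of at least 5 in both replicates 8.31% of sites were in clusters. Of the 235 clusters 197 had 2 sites, 30 had 3, 6 had 4 and 2 had 5, the last being those in DST and NSMCE2. Their median span was 18.4 kb, and 218 clusters had a single nearest coding gene. In 39 clusters every site met H3K27ac, in 93 some did and in 103 none did. In 59 clusters every site was unmarked, and in 55 every site was over 50 kb from a coding gene. No mark was met by 48.6% of the clustered sites and by 53.6% of the single sites, so unmarked sites were common in both.

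Clustered sites met H3K27ac more often than single ones. The share was 37.5% of 518 clustered sites (33.3 to 41.8) against 29.7% of 1521 single sites (27.4 to 32.1), an odds ratio of 1.42 (1.15 to 1.75, Fisher's exact test, two-sided, adjusted over 3 marks, p = 0.00375). H3K4me1 was met by 30.3% and 28.4% (odds ratio 1.10, 0.882 to 1.36, adjusted exact p = 0.432) and H3K4me3 by 4.25% and 5.85% (0.714, 0.443 to 1.15, adjusted exact p = 0.269). With every peak of a single library taken as a site, the H3K4me3 odds ratio was 0.635 in replicate 1 (adjusted exact p = 0.00381) and 0.577 in replicate 2 (adjusted exact p = 2.74e-11). Median mean fold enrichment was 3.68 in clusters and 3.76 outside them. Sites of a cluster are neighbours that can share 1 mark region, so the test treats them as more independent than they are.

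The DST cluster held 5 sites in 78.1 kb. Its first, at 3.53 and 5.19, had no mark, and the other 4 met H3K27ac, one of them with H3K4me3 at 3.23 and 3.96. In NSMCE2, 5 sites spanned 109 kb, and the last 2, 103.512 and 108.443 kb from the first, were high in replicate 2, at 2.74 and 5.36 and at 4.05 and 6.07. The ABLIM3 cluster had 3 of its 4 sites within 3 kb of each other, and all 4 met H3K27ac and H3K4me1. In all 3 of these gene clusters most sites were acetylated.

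The cluster nearest to OGFRL1 lay 56680 to 98298 bp outside that gene and included the site beside MIR30A. Its first 2 sites, at 2.77 and 4.34 and at 3.02 and 5.78, had no mark, while the other 2, at 4.34 and 5.65 and at 4.41 and 4.94, met H3K27ac. Near CCDC112 a cluster of 28.9 kb had H3K4me1 at all 4 sites and H3K27ac at 2, with the strongest at 4.84 and 4.98. TNFRSF11B encodes osteoprotegerin, a decoy receptor for RANKL, and its 4 sites, 1 of them inside the gene, included 3 with no mark. The cluster nearest to MARCKS, an actin-binding substrate of protein kinase C, lay at least 326349 bp away, and 3 of its 4 sites were higher in replicate 2. The cluster nearest to KIF20B, a kinesin gene, lay at least 404653 bp away, with 3 of 4 sites unmarked. The map of clusters shows that the replicates differed more at some sites of MARCKS than the sites of a cluster differed in mean.

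**Figure D4:**
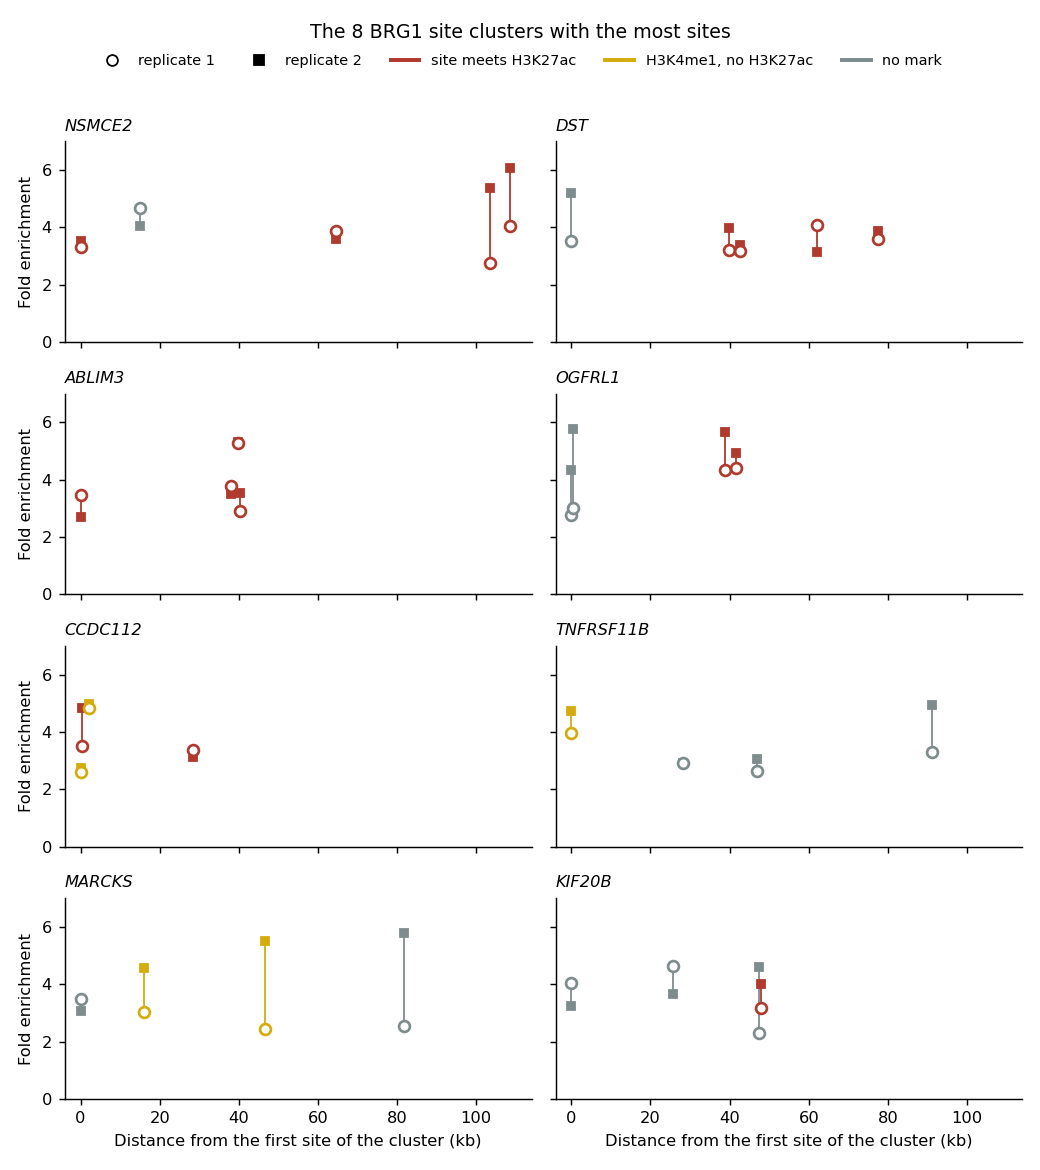
Fold enrichment (vertical) of each BRG1 site in the 8 clusters with the most sites against its distance in kb from the first site of the cluster (horizontal), named by nearest coding gene. Open circles are replicate 1 and squares replicate 2 of the same site, and colour gives the mark it met. All 4 ABLIM3 sites met H3K27ac, while 3 of 4 sites did not meet any mark near TNFRSF11B and near KIF20B.

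Gene lists were read against the 5.84% of all coding genes with an assigned site, with their gene lengths beside them. Growth factor receptors and ligands had 7 of 22 members with a site (median length 53.6 kb), and integrins and laminins 6 of 29 (85.3 kb). Actin and motility genes had 5 of 25 (63.9 kb), and Wnt receptors and effectors 4 of 25 (80.0 kb). Of the NRF2 targets and regulators 4 of 22 had a site (22.8 kb), and of the TEAD and YAP genes 3 of 16 (63.0 kb). Neuronal genes had 3 of 20 (80.5 kb). The lists were not compared with genes of like length, and nothing particular to a list is read from these counts.

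Among receptors and ligands, PDGFRB, a PDGF receptor gene and also one of the fibroblast markers looked up, held a site at 6.45 and 4.74 that met H3K27ac, H3K4me1 and SMARCC1. EPHA2, an ephrin receptor gene, had one 8072 bp from its end at 4.88 and 5.30 with H3K27ac. ERBB4 held one at 3.23 and 5.46 with H3K4me1, and AREG, which encodes the EGF receptor ligand amphiregulin, one at 3.19 and 5.03 with no mark. Of these 4 sites, only that of PDGFRB was higher in replicate 1.

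Of the 6 integrin and laminin genes with a site, 5 were laminin genes. LAMB1 held a site at 5.23 and 4.29 with H3K27ac, and LAMA2 held 3, led by one at 4.47 and 4.72 with no mark. The strongest of 2 sites in LAMA4 had 4.29 and 4.43 and no mark. For actin, MSN, the moesin gene, held 2 sites with H3K27ac and H3K4me1, led by one at 4.77 and 4.09. MYO10, a filopodial myosin gene, held one at 3.67 and 3.98 without a mark, and RDX had one at 3.80 and 3.83 that met NRF2.

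Signalling genes beyond LGR4 and TGFB2 had weaker sites. TCF7L2 and LEF1, the nuclear effectors of Wnt, had 2 each, led by sites at 3.02 and 4.22 and at 3.49 and 4.34, and RSPO2, an R-spondin gene, had one at 3.71 and 4.14. ACVR1, an activin and BMP receptor gene, held one at 4.38 and 3.76 with H3K27ac and H3K4me1, and with TGFB2 made up the 2 of 20 TGF-beta pathway genes with a site. YAP1 held one at 2.64 and 3.84 with H3K27ac and H3K4me3, WWTR1, the gene of its paralog TAZ, 2, led by one at 3.01 and 3.21, and AMOTL1, a YAP-binding protein gene, had one at 2.53 and 4.47. JUN had one 16146 bp away at 4.09 and 3.83 with H3K27ac and H3K4me1, and BATF one inside at 4.54 and 3.21. JUN and BATF were the 2 of 16 AP-1 genes with a site.

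NFE2L2, the gene of NRF2 itself, had a site 133 bp from its start at 3.90 and 3.91 with H3K27ac and H3K4me3 and no NRF2 site. The cystine transporter gene SLC7A11 held one at 2.73 and 4.09 with no mark. ABCC2 and ABCC3, both exporters of conjugates, had sites at 3.92 and 3.59 and at 3.27 and 3.36 with H3K27ac, and the former met NRF2. These 4 were the members of the list with a site.

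The lists below had 0 to 3 members with a site. Such small counts are not read as high or low beside the 5.84% of all coding genes. The share was 3.70% for BAF and PBAF subunits and 2.78% for cytosolic ribosomal proteins. It was 5.56% for epithelial and mesenchymal state and 15% for neuronal genes. Of 27 BAF and PBAF subunit genes (median length 51.0 kb) 1 had a site, ARID1B, at 3.52 and 4.01 with H3K27ac. Cytosolic ribosomal protein genes had 1 of 36, RPS3, at 2.89 and 3.86 with H3K27ac and H3K4me3, and genes of epithelial and mesenchymal state had 1 of 18, GRHL2, at 2.53 and 2.79. No member had an assigned site among 15 pancreatic cancer drivers or among 16 pancreatic lineage factors. Among neuronal genes, SNAP25 had 2, led by one at 3.04 and 5.11, GRIN2A one at 2.92 and 4.24, and DLG2 one at 3.25 and 6.03.

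Of the 6610 peaks of replicate 2, 4557 (68.9%, 67.8 to 70.1) did not overlap a replicate 1 peak. Of the replicate 1 peaks, 1149 (35.8%) did not overlap a replicate 2 peak. The unmatched replicate 2 peaks were weaker and narrower, with a median fold enrichment of 3.38 against 3.88 and a median width of 245 against 319 bp. The share not found was 45.5% of the 1322 strongest replicate 2 peaks and 83.2% of the 1353 weakest. Still, 1055 unmatched peaks were at or above 3.89, the median of the sites in replicate 2, and 463 (10.2%) lay within 5 kb of a replicate 1 peak.

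Unmatched peaks met H3K4me3 and gene ends more often than matched ones. H3K4me3 was met by 13.2% of the 4557 unmatched peaks (12.2 to 14.2) and 5.41% of the 2053 matched (4.47 to 6.47), an odds ratio of 2.65 (2.15 to 3.27). Within 1000 bp of a gene end lay 9.66% and 4.72% (2.16, 1.72 to 2.70). H3K4me1 went the other way, with 21.5% and 28.3% (0.692, 0.614 to 0.779). By Fisher's exact test, two-sided, adjusted over 4 comparisons, p was 1.23e-22, 3.38e-12 and 2.40e-09. H3K27ac was met by 29.2% and 31.4% (0.899, 0.803 to 1.01, adjusted exact p = 0.0673). Peaks are not replicates, and the tests compare peaks of 1 library.

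In replicate 1 the same sorting gave like values for H3K4me3 and gene ends. There 12.1% of unmatched and 5.38% of matched peaks met H3K4me3, and 8.88% and 4.65% lay at gene ends. H3K27ac was met by 25.2% of unmatched and 30.7% of matched peaks (odds ratio 0.760, adjusted exact p = 0.00130), which passed the threshold here. For H3K4me1 the order turned, with 29.3% of unmatched and 27.5% of matched peaks (odds ratio 1.10, adjusted exact p = 0.269). NRF2 sites were met by 0.702% of unmatched and 4.53% of matched replicate 2 peaks, and by 1.04% and 4.55% in replicate 1. Strength moves with these shares, and its part in them was examined only in replicate 2, by splitting its peaks at their median fold enrichment. This split was chosen after the data were seen. In replicate 2 the orders of H3K4me1, H3K4me3 and gene ends were kept on both sides of it. H3K27ac was met by 29.7% of unmatched and 32.7% of matched peaks at or above the median. Below the median both shares were 28.8%. Strength was not matched within each side, so its part in these shares was not tested further. Replicate 1 peaks were not split.

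**Figure D5:**
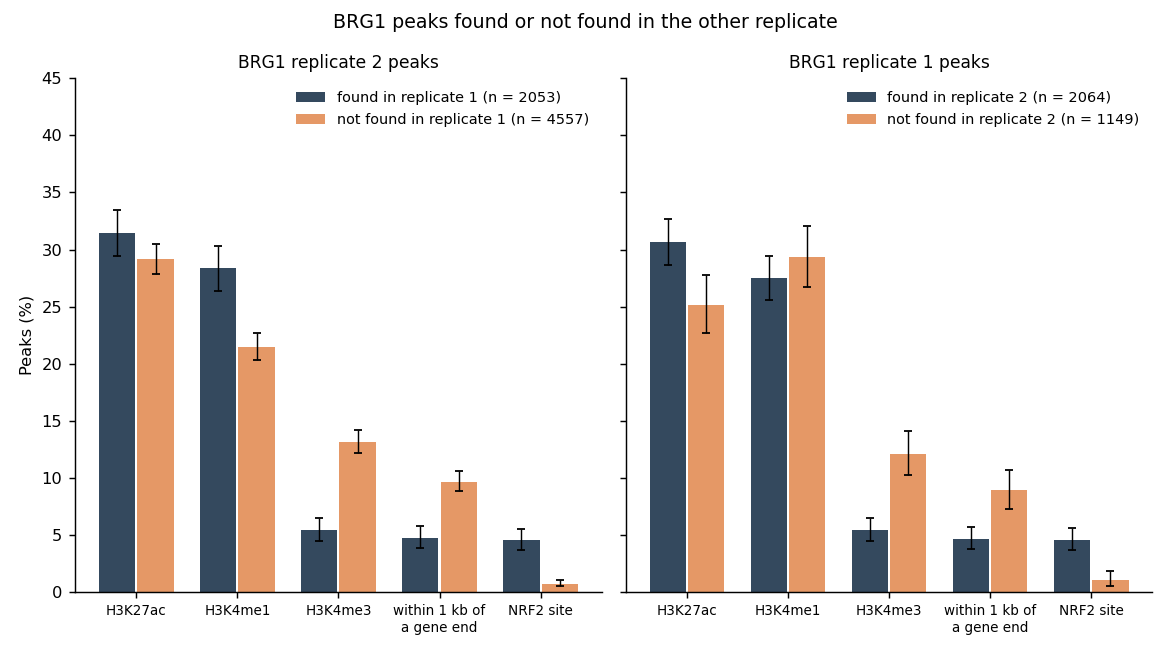
Share of BRG1 peaks (vertical, percent) that met each mark, a coding gene end within 1 kb or an NRF2 site, for replicate 2 peaks (left) and replicate 1 peaks (right), by whether the other replicate had an overlapping peak. Lines are exact 95% intervals, which cover counting error only. H3K4me3 is higher in the unmatched peaks of both libraries, 13.2% against 5.41% and 12.1% against 5.38%.

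The strongest replicate 2 peaks that replicate 1 lacked reached 7.70, against 10.3 at the strongest site in that library. The first, at 7.70 with no mark, lay inside DNASE1L3, a gene for an extracellular DNase, on chr3:58206579-58206887. ZNF133, a zinc finger gene, held one at 7.07 with H3K27ac and H3K4me1. OSTN, the gene of the hormone osteocrin, was nearest to one at 7.06, 132151 bp away, and CDV3 to one at 7.03 with H3K4me1. INTS4, another Integrator subunit gene, held one at 6.74 with H3K4me1, and MAP4K5, a kinase gene of the JNK pathway, one at 6.66 with H3K27ac and H3K4me1. GIPC2 and JADE3 also had peaks at 6.66, both without a mark. The last 2 of the 10 lay 280682 bp from LOC124904228, at 6.93, and 453812 bp from LOC100996696, at 6.60, without a mark. None of the 10 met a SMARCC1 or NRF2 site.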

How the data were processed

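Peak lists of 12 CUT&RUN libraries were analysed, grouped by the target and replicate number in the labels. The kit was run on 0.5X106 cells per condition, per the labels' protocols. Per the submitters' processing notes, the build was GRCh38 and the tools were MACS2 2.2.7.1, Bowtie2 2.4.1, Picard 2.23.9 and SAMtools 1.9, with no settings. The authors deposited for each peak a fold enrichment (a ratio), a −log10 p, a −log10 q and a score. Fold enrichment was used unscaled, −log10 p and q served as thresholds, and the score was not used.

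Overlapping or touching peaks of both replicates were merged, and marks and other factors were treated alike. Meeting meant an overlap of at least 1 bp. Genes were the 19974 coding genes of RefSeq GRCh38.p14, and a site was assigned to the nearest within 50 kb. Intervals are exact (Clopper-Pearson, 95%) and cover counting error only. Shares were compared by Fisher's exact test with Benjamini-Hochberg adjustment in 3 families, a computation tested on simulated data. Start sites and microRNA hairpins on chromosome 8 were not used here.

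Named sites were the 20 strongest, 10 widest, 10 strongest at gene ends, 5 with the largest ratio between replicates, 10 strongest unmatched replicate 2 peaks, the 10 genes and 8 clusters with the most sites, and up to 4 members of each of 14 gene lists. One entry under this rule is not reported here. MicroRNA, lncRNA and promoter entries were chosen after their values were seen. The members and lists were chosen with earlier results of these data known. Scripts ran on SciPy 1.17.1, pandas 2.3.3, NumPy 2.4.6 and matplotlib 3.10.9 under Python 3.11.15.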

Additional observations from a re-analysis of the deposited data

Results flagged for a closer look

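BRG1 replicate 1 had 11 peaks inside UBA1, the gene of the main ubiquitin-activating enzyme (chromosome X, 47190847 to 47215128), where replicate 2 had none. Their fold enrichment was 1.73 to 3.94, but their −log10 p ran from 31.0 to 210, and the highest elsewhere in that library was 17.2. NRF2 replicate 1 had 9 peaks there, with −log10 p of 551 to 1332, and NRF2 replicate 2 had 4, with 2.12 to 15.8. H3K4me3 had 3 peaks there in each replicate, with −log10 p up to 27.8 and 25.4, and H3K27ac had 2 and 1. SMARCC1 and H3K4me1 had none there in either replicate. The cause was not tested. No BRG1 site lies on these peaks, since replicate 2 lacks them.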

How the results depend on the processing

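Without one of the 2 replicates, every peak of the other counted as a site. The number of sites then was 3213 to 6610, their median width 246 to 262 bp, the gene-end share 6.16 to 8.12%, the share over 50 kb from genes 25.5 to 27.4%, the genes with several sites 417 to 989, and the clustered share 33.0 to 51.2%. In the same way the clustered against single odds ratio was 0.577 to 0.635 for H3K4me3, past the threshold in both libraries, and 0.998 to 1.08 for H3K4me1, the lower value without replicate 2. With −log10 p of at least 5 in both replicates there were 373 sites, of median width 407 bp, 48.5% inside genes, 29.0% over 50 kb away and 8.31% in clusters, with 13 genes with several sites. At 3 the median width was 394 bp and 151 genes had several. With summits within 200 bp it was 366 bp. The gene-end share was 6.82% within 2000 bp and 3.38% within 500 bp.

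The share of replicate 2 peaks not found was 66.4% when peaks within 500 bp counted as found, 70.1% with an overlap of 50% of the shorter peak, and 65.3% and 46.8% for peaks with −log10 p of at least 3 and 5. With the replicate block (marks of replicate 2 only) the H3K27ac odds ratio of unmatched peaks was 0.868 (adjusted exact p = 0.0115). For replicate 1 peaks, an alternative chosen after seeing the data, it was 0.760, and that of H3K4me1 was 1.10. Same-numbered libraries were not closer: BRG1 replicate 1 peaks met 32.6% and 33.2% with H3K27ac of replicates 1 and 2. With as many BRG1 as NRF2 sites the odds ratio over 50 kb was 1.42 (adjusted exact p = 0.0507). The causes were not tested. Over the 3 families of tests the other alternatives kept direction and side of the threshold. Depth is unknown, so no limit of detection can be given, and 2 replicates limit the precision.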
